A study of Rattus norvegicus with 32 samples.

Results

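The genes described here are the core of the Wnt signaling pathway, chosen as every array probe whose gene symbol in the platform annotation named a Wnt ligand, a Frizzled receptor (Fzd), the co-receptors Lrp5 and Lrp6, a Dishevelled (Dvl1 to Dvl3), Axin1 or Axin2, beta-catenin (Ctnnb1), a secreted inhibitor of the Dkk or Sfrp families, or a transcription factor of the Tcf and Lef family. The rule used names only and no measured value. It found 31 of the 12573 genes named on the array, read by 45 of its 33849 probes. A filter asked that some group have the probe above background on each of its 4 arrays, and 20 of these probes, for 16 genes, passed it and could be tested, as did 17635 probes of the whole array.

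Wnt proteins are secreted lipid-modified ligands that bind Frizzled receptors, together with Lrp5 or Lrp6, at the cell surface. In the canonical branch, receptor binding acts through Dishevelled to hold back a complex, built on Axin, that marks beta-catenin for destruction, and the beta-catenin that accumulates enters the nucleus and acts with Tcf and Lef factors on target genes. Sfrp proteins bind the ligands and Dkk proteins, in the main, bind the co-receptors, and both families limit signaling. In the adult hippocampus the pathway is known for its part in neurogenesis and in the maintenance of synapses.

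RNA came from CA3 pyramidal neurons of adult male Sprague-Dawley rats, collected by laser capture as neurons left unstained by Fluoro-Jade (FJ), a stain of degenerating neurons. In injured rats they lay beside stained ones, so the data describe surviving neurons, amplified and pooled over rats. At 4 and 24 h there were 4 groups. They were fluid percussion traumatic brain injury (TBI) with metyrapone (MT, 100 mg/kg, an inhibitor of glucocorticoid synthesis), TBI with carbenoxolone (CB, 30 mg/kg, an inhibitor of 11beta-hydroxysteroid dehydrogenase), TBI with saline, and sham injury (Sham). The labels place treatment 90 min before injury and pool 3 to 6 rats, call the 4 h Sham rats untreated and count time from treatment, whereas the methods give the Sham rats saline, use another interval and count from surgery. Each group held 2 pools, and each pool was hybridized to duplicate CodeLink arrays, for 16 pools and 32 arrays in all. Every level below is a raw spot intensity divided by the median of its array, averaged over the duplicate arrays, so that a level of 1 is the array median. Pools are given in the order 1 and 2, and n = 2 pools per group throughout. Because probes differ in how well they bind, a brighter probe does not show a more abundant transcript, and levels are compared between pools but not between genes.

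Pools of a group differed more than duplicate arrays did, with a median correlation of log2 levels of 0.873 between pools and 0.975 between duplicates. The share of probes above background lay between 27.7% and 64.6% in the 16 pools. Of 6 pyramidal neuron markers, 4 had a probe and 3 passed the filter: Grik4, Slc17a7 and Camk2a were above background on all 32 arrays, while Snap25 was above it on none. All 6 astrocyte and all 6 microglial markers also passed. In bulk RNA of this kind, fewer cells of a type and less RNA per cell cannot be told apart. The second TBI pool at 4 h stood apart. It held 143.6 times the array median of Ttr, a choroid plexus gene, against 0.126 to 7.73 in the other 15 pools, and it was the highest of the 16 pools for 6 of the 16 Wnt genes and for 34.6% of all probes that passed. The first TBI+MT pool at 24 h, with the fewest probes above background, was the lowest for 6 of the 16 Wnt genes and for 35.9% of all probes. The part of these differences in the results was not tested.

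Of the 6 ligand genes, 3 could be measured. No ligand passed the test in any comparison, and Wnt2b at 24 h lay below the TBI pools in all 4 drug-treated pools. Wnt2 encodes a canonical ligand. Its levels at 4 h were 27.9 and 28.7 in TBI+MT, 24.3 and 20.3 in TBI+CB, 25.0 and 31.9 in TBI, and 8.11 and 22.4 in Sham pools. The first Sham pool was the lowest of all 16, and the Sham pools lay below both TBI pools. At 24 h Wnt2 was 12.2 and 21.1 in TBI+MT, 31.5 and 23.9 in TBI+CB, 12.4 and 31.03 in TBI, and 19.0 and 19.5 in Sham pools, and the TBI pools spanned both Sham pools. The difference of TBI from Sham at 4 h was 1.07 on the log2 scale (SE 0.60, adjusted p = 0.94, limma). It was 0.34 without the first Sham pool, 1.80 without the second Sham pool and 0.89 without the second TBI pool.

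Wnt2b, a second canonical ligand, had levels at 4 h of 3.93 and 5.28 in TBI+MT, 6.24 and 5.57 in TBI+CB, 5.08 and 6.40 in TBI, and 2.99 and 5.32 in Sham pools. At 24 h its levels were 4.02 and 2.47 in TBI+MT, 5.40 and 2.81 in TBI+CB, 7.32 and 8.53 in TBI, and 5.28 and 8.04 in Sham pools. Both TBI+MT pools and both TBI+CB pools lay below both TBI pools at that time, and the TBI and Sham pools overlapped. The log2 difference from TBI was -1.33 for TBI+MT (SE 0.52, unadjusted p = 0.025, adjusted p = 0.85) and -1.02 for TBI+CB (SE 0.52, adjusted p = 0.59), by limma with Benjamini-Hochberg adjustment. Neither passed the threshold of 0.05. With 1 pool left out, the TBI+MT value ran between -1.68 and -0.98 and the TBI+CB value between -1.49 and -0.55, the last without the second TBI+CB pool. Of the 6 endothelial and pericyte markers that passed, all were lower on average than in TBI at 24 h in both drug groups, and their summed levels were 33.0 and 30.2 in TBI+MT, 43.4 and 29.9 in TBI+CB, and 50.5 and 56.2 in TBI pools. Their part in the Wnt2b difference was not tested.

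Wnt5b, which mostly acts outside the beta-catenin branch, was read by 2 probes that behaved differently. The brighter probe gave 9.49 and 5.23 in TBI+MT, 6.34 and 6.94 in TBI+CB, 11.1 and 6.55 in TBI, and 9.44 and 7.39 in Sham pools at 4 h, and the TBI pools overlapped every other group. It gave 5.10 and 3.91 in TBI+MT, 8.02 and 3.75 in TBI+CB, 5.31 and 9.72 in TBI, and 10.3 and 8.95 in Sham pools at 24 h, where both TBI+MT pools lay below both TBI pools (log2 difference -0.69, SE 0.55, adjusted p = 0.93, and -0.25 without the second TBI pool). The dimmer probe, above background on 20 of 32 arrays, separated the groups more widely. Its levels at 4 h were 0.645 and 1.64 in TBI+MT, 2.07 and 3.13 in TBI+CB, 2.19 and 6.16 in TBI, and 3.25 and 4.67 in Sham pools. At 24 h they were 1.02 and 0.381 in TBI+MT, 3.36 and 2.52 in TBI+CB, 0.497 and 0.933 in TBI, and 3.14 and 1.24 in Sham pools, with the TBI+CB pools above both TBI pools and the TBI pools below both Sham pools. This probe had the smallest unadjusted p of any member in 2 comparisons with TBI: the log2 difference was -1.84 in TBI+MT at 4 h (SE 0.74, unadjusted p = 0.029, adjusted p = 0.74) and 2.10 in TBI+CB at 24 h (SE 0.74, unadjusted p = 0.015, adjusted p = 0.59). With 1 pool left out the 4 h value ran between -2.58 and -1.09, the last without the second TBI pool, and the 24 h value between 1.64 and 2.55. At 24 h the probe was above background on 3 of 4 TBI+CB arrays and 1 of 4 TBI arrays. It is named here after its values were seen. The brighter probe of the same gene had a log2 difference of -0.28 in the first of these comparisons and -0.39 in the second, each smaller than that of the dimmer probe and, in the second, of the opposite sign. Wnt4, Wnt5a and Wnt11 were above background on at most 2 of 32 arrays with any probe.

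**Figure D1:**
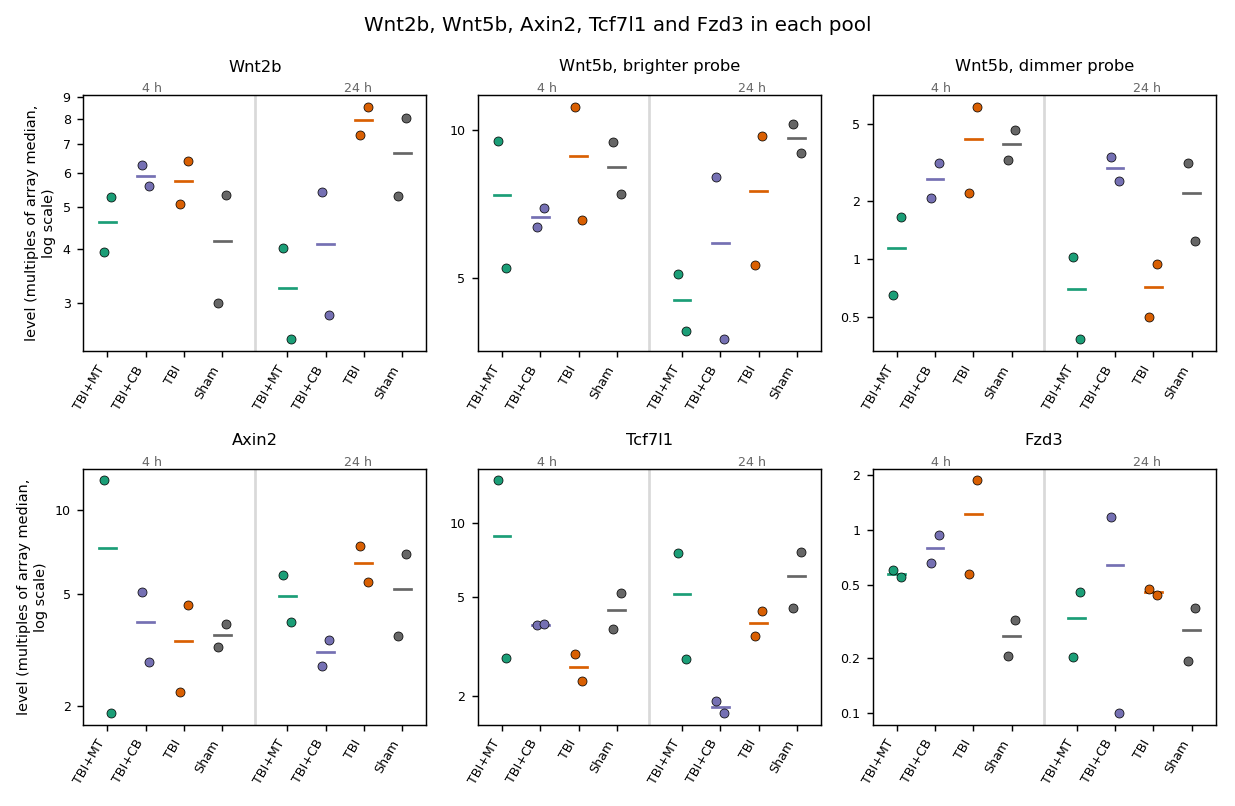
Levels of Wnt2b, of both probes of Wnt5b, and of Axin2, Tcf7l1 and Fzd3 in each pool, in multiples of the array median on a log axis, by group at 4 and 24 h. Points are pools and bars are group means. Wnt2b lay lower in the TBI+MT and TBI+CB pools than in the TBI pools at 24 h, and the first TBI+MT pool at 4 h was the highest of all pools for Axin2 and Tcf7l1.

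Among the receptors, Fzd3 had the smallest p of any Wnt gene in the comparison of TBI with Sham at 4 h. Fzd3 passed the filter only through the TBI group at 4 h, so this rank and its difference there are in part set by the filter. Fzd3, a Frizzled known for axon guidance, was at 0.604 and 0.554 in TBI+MT, 0.664 and 0.944 in TBI+CB, 0.576 and 1.87 in TBI, and 0.206 and 0.324 in Sham pools at 4 h. It was above background on all 4 TBI arrays and on none of the 4 Sham arrays, so the Sham level is a bound and TBI was at least 1.45-fold higher. That bound rests on the second TBI pool: the first TBI pool alone lay below the 0.719 that stands for background in Sham and gives no bound above 1. The fitted log2 difference was 2.01 (SE 0.97, adjusted p = 0.94) and 1.16 without the second TBI pool. At 24 h Fzd3 was above background only on 2 TBI+CB arrays.

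Fzd8, which can form a complex with Lrp5 or Lrp6, was at 0.5998 and 2.18 in TBI+MT, 2.61 and 2.06 in TBI+CB, 1.41 and 0.568 in TBI, and 2.00 and 2.22 in Sham pools at 4 h and at 0.384 and 6.92 in TBI+MT, 4.26 and 2.24 in TBI+CB, 1.23 and 0.704 in TBI, and 1.26 and 0.909 in Sham pools at 24 h. Fzd8 passed the filter only through the Sham and TBI+CB groups at 4 h, so the differences of these groups from TBI there are in part set by the filter. Both TBI+CB pools exceeded both TBI pools at each time. At 24 h Fzd8 was above background on 2 of 4 TBI+CB arrays, both of 1 pool, and on no TBI array. The TBI+CB average was 2.62-fold the level that stands for background in TBI (adjusted p = 0.62 for the difference, limma). Without the first TBI+CB pool it was 1.90-fold. Since 1 of the 2 TBI+CB pools was itself not above background, neither value is a firm lower bound. At 4 h the log2 difference was 1.37 (SE 1.09, adjusted p = 0.96) and 0.72 without the second TBI pool. The 2 TBI+MT pools at 24 h differed 18.1-fold, the largest gap between 2 pools of a group for any of the 16 genes. Fzd5 had levels at 24 h of 9.33 and 5.15 in TBI+MT, 3.45 and 6.11 in TBI+CB, 10.1 and 7.63 in TBI, and 5.94 and 11.2 in Sham pools, with both TBI+CB pools below both TBI pools (log2 difference -0.94, SE 0.59, adjusted p = 0.62, and -0.53 without the first TBI+CB pool). At 4 h its levels ran between 3.05 and 7.96 over all 4 groups. Fzd10 ranged only between 1.24 and 2.96 over the 16 pools.

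Lrp5, the co-receptor, was at 2.05 and 1.13 in TBI+MT, 3.33 and 0.831 in TBI+CB, 0.407 and 3.05 in TBI, and 4.15 and 6.04 in Sham pools at 4 h and at 4.84 and 0.285 in TBI+MT, 3.26 and 1.74 in TBI+CB, 3.90 and 3.81 in TBI, and 0.973 and 4.95 in Sham pools at 24 h. Both Sham pools at 4 h exceeded both TBI pools (log2 difference of TBI from Sham -2.17, SE 1.30, adjusted p = 0.94). The value was -0.72 without the first TBI pool and -3.62 without the second. At 24 h TBI+MT against TBI was -1.72 (SE 1.30, adjusted p = 0.93), and the 2 TBI+MT pools lay on either side of both TBI pools, 17.0-fold apart. Without the second of them the sign turned, to 0.33. Fzd2 and Fzd4 were above background on no array, and Fzd9, the most often detected of the receptors that did not pass, was so on 12. Lrp6 was above background on at most 6 arrays.

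The Dishevelled genes and beta-catenin were represented by bright probes that were above background on all 32 arrays. A second beta-catenin probe was above background on no array. Dvl1, which relays the receptor signal, was at 41.6 and 60.6 in TBI+MT, 47.3 and 59.4 in TBI+CB, 61.8 and 97.8 in TBI, and 43.0 and 46.2 in Sham pools at 4 h. Both TBI pools were above both Sham pools and above both TBI+MT and both TBI+CB pools. At 24 h it was at 14.3 and 33.7 in TBI+MT, 61.9 and 37.4 in TBI+CB, 41.8 and 53.8 in TBI, and 55.0 and 36.3 in Sham pools, and both TBI+MT pools were the lowest of the 4 groups. The log2 difference was 0.80 for TBI against Sham at 4 h (SE 0.54, adjusted p = 0.94) and -1.11 for TBI+MT against TBI at 24 h (SE 0.54, adjusted p = 0.91). The 4 h value was 0.47 without the second TBI pool, which leaves pools of 1 slide run, and 0.34 with quantile normalization. Without the first TBI+MT pool the 24 h value was -0.49. For the drugs at 4 h the differences from TBI were -0.63 with MT and -0.55 with CB (SE 0.54 each, adjusted p = 0.74 and 0.96), and with quantile normalization they were 0.01 and -0.12, so that the direction with MT turned. Without the second TBI pool they were -0.30 with MT and -0.22 with CB.

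Dvl3 was at 18.9 and 39.4 in TBI+MT, 28.8 and 24.6 in TBI+CB, 36.2 and 40.8 in TBI, and 15.4 and 17.9 in Sham pools at 4 h, with both TBI pools above the Sham mean of 16.7 and above either Sham pool. At 24 h it was at 5.01 and 20.5 in TBI+MT, 34.0 and 9.26 in TBI+CB, 9.92 and 15.6 in TBI, and 20.8 and 10.85 in Sham pools, and all 4 groups overlapped. TBI against Sham at 4 h was 1.21 on the log2 scale (SE 0.76, adjusted p = 0.94), 1.12 without the second TBI pool and 0.72 with quantile normalization. Ctnnb1, which encodes beta-catenin itself, was at 236 and 281 in TBI+MT, 449 and 369 in TBI+CB, 318 and 632 in TBI, and 345 and 395 in Sham pools at 4 h. The second TBI pool was the highest of all 16, and both TBI+MT pools lay below all pools of the other groups at that time. The log2 difference of TBI+MT from TBI was -0.80 (SE 0.55, adjusted p = 0.74) and -0.31 without the second TBI pool. At 24 h Ctnnb1 was at 152 and 384 in TBI+MT, 380 and 274 in TBI+CB, 245 and 274 in TBI, and 358 and 223 in Sham pools, with TBI+MT spanning both TBI pools.

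**Figure D2:**
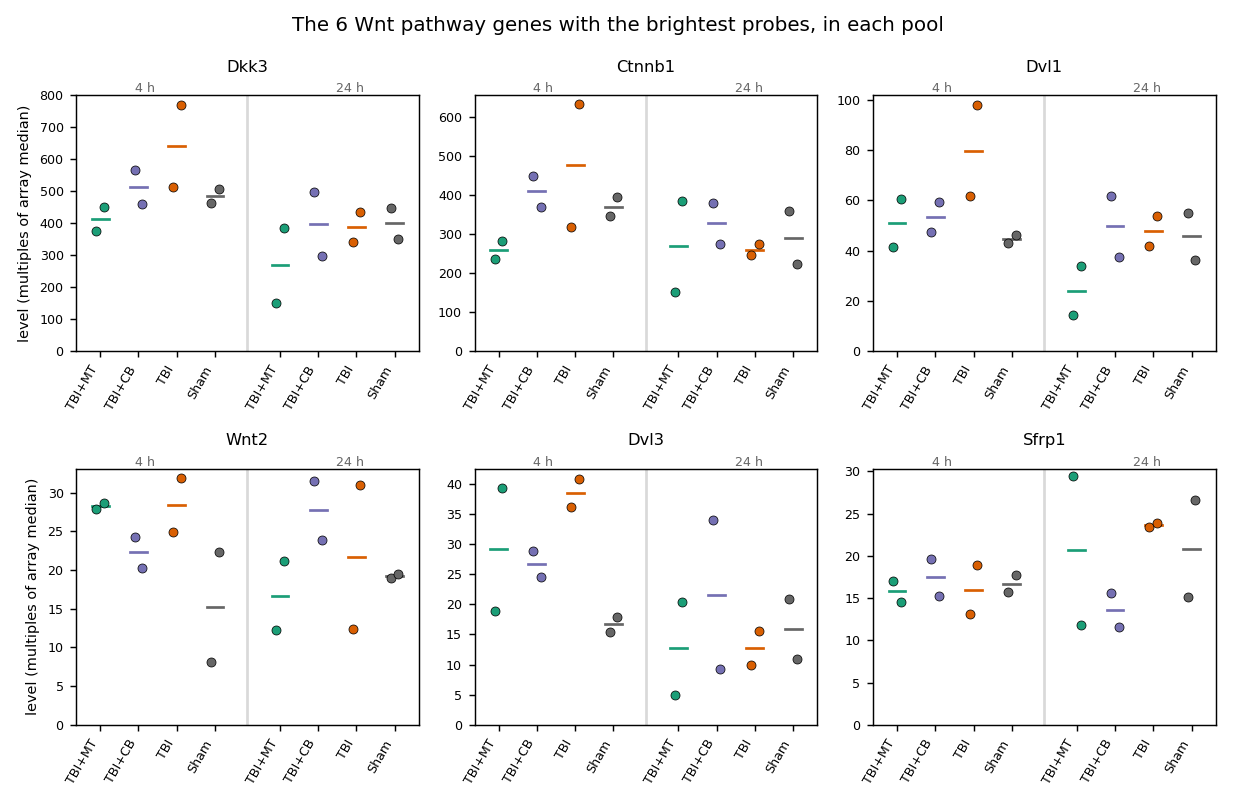
Levels of the 6 Wnt pathway genes with the brightest probes (Dkk3, Ctnnb1, Dvl1, Wnt2, Dvl3 and Sfrp1) in each pool, in multiples of the array median on axes that start at 0, by group at 4 and 24 h. Points are pools and bars are group means. At 4 h both TBI pools were above both Sham pools for Dkk3, Dvl1, Wnt2 and Dvl3, and the second TBI pool was the highest of all 16 for Dkk3, Ctnnb1, Dvl1, Wnt2 and Dvl3.

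Axin1 and Axin2 are scaffolds of the complex that degrades beta-catenin, and Axin2 is also a widely used target gene of the pathway, induced by beta-catenin as part of a feedback loop. Axin1 was at 5.65 and 15.9 in TBI+MT, 7.36 and 17.1 in TBI+CB, 21.1 and 14.4 in TBI, and 14.8 and 10.8 in Sham pools at 4 h, and the 2 drug groups overlapped TBI. TBI+CB against TBI was -0.64 (SE 0.86, adjusted p = 0.96), and with 1 pool left out it ran between -1.25 without the second TBI+CB pool and -0.03 without the first. Over the 16 pools Axin1 ran between 2.09 and 22.6. Axin2 was at 12.7 and 1.88 in TBI+MT, 5.08 and 2.86 in TBI+CB, 2.24 and 4.57 in TBI, and 3.23 and 3.90 in Sham pools at 4 h, where the 2 TBI+MT pools held the highest and the lowest level of the whole series. At 24 h it was at 5.85 and 3.96 in TBI+MT, 2.77 and 3.43 in TBI+CB, 7.41 and 5.502 in TBI, and 3.54 and 6.92 in Sham pools, and both TBI+CB pools were below both TBI pools (log2 difference -1.05, SE 0.78, adjusted p = 0.67).

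Tcf7l1, a DNA-binding partner of beta-catenin that mostly represses in its absence, was the only one of the 4 Tcf and Lef genes that passed the filter. At 4 h it was at 14.8 and 2.86 in TBI+MT, 3.87 and 3.91 in TBI+CB, 2.95 and 2.31 in TBI, and 3.71 and 5.20 in Sham pools, with both TBI pools below both Sham and both TBI+CB pools. The first TBI+MT pool was 5.17-fold above the second, and it was the same pool that held the highest Axin2. At 24 h Tcf7l1 was at 7.52 and 2.83 in TBI+MT, 1.91 and 1.71 in TBI+CB, 3.48 and 4.42 in TBI, and 4.53 and 7.63 in Sham pools, with both TBI+CB pools below every other pool at that time. It was above background on only 2 of 4 TBI+CB arrays at 24 h, and on every array of the other groups. Against TBI, TBI+CB was 0.57 at 4 h (SE 0.72, adjusted p = 0.96) and -1.12 at 24 h (SE 0.72, adjusted p = 0.63), and TBI+MT at 4 h was 1.32 (SE 0.72, adjusted p = 0.74). Without the first TBI+MT pool that last value was 0.13. TBI against Sham was -0.75 at 4 h (SE 0.72, adjusted p = 0.94) and -0.58 at 24 h (SE 0.72, adjusted p = 1.0, and -0.21 without the second Sham pool). Tcf7 was above background on at most 11 arrays. Its levels ran between 0.199 and 2.20. Lef1 and Tcf7l2 were above background on at most 8 each.

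Because Axin2 and Tcf7l1 peaked in the same TBI+MT pool, the 250 bases before their annotated starts are shown, from RefSeq on rat build GRCr8, 5′ to 3′ on the strand of the gene. Promoter windows were found for 20 of the 31 genes. Capitals mark a match to the Tcf and Lef core motif, searched as CTTTGAT or CTTTGTT on both strands. The Axin2 window is chr10:94398535-94398784 on the plus strand and the Tcf7l1 window is chr4:106403422-106403671 on the minus strand.
Axin2: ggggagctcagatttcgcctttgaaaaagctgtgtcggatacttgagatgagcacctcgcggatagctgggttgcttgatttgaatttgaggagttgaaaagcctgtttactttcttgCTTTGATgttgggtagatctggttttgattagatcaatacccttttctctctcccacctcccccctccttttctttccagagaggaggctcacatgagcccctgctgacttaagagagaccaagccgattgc
Tcf7l1: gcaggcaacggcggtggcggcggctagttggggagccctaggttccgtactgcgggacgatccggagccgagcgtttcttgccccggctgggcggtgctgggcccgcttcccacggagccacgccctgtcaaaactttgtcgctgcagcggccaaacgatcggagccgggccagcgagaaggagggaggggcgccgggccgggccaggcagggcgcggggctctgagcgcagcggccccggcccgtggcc
No match stands in the Tcf7l1 window. CTTTGAT starts 132 bases before the Axin2 start and was in no other of the 20 windows, against 3.15% of the 33469 windows of that length in the table. CTTTGTT, in 5.14% of all windows, was in none of the 20. A match in these letters is a description and not a measured binding site.

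Of the secreted inhibitors, Dkk3 and Sfrp1 could be measured. Dkk3 is a divergent member of its family that is strongly expressed in hippocampal neurons. Its brightest probe was at 375 and 450 in TBI+MT, 566 and 460 in TBI+CB, 513 and 770 in TBI, and 463 and 506 in Sham pools at 4 h, and both TBI+MT pools were below both TBI pools. At 24 h it was at 150 and 386 in TBI+MT, 496 and 296 in TBI+CB, 342 and 435 in TBI, and 448 and 351 in Sham pools, where only the first TBI+MT pool stood below the rest. Against TBI, TBI+MT was -0.61 at 4 h (SE 0.53, adjusted p = 0.74) and -0.68 at 24 h (SE 0.53, adjusted p = 0.93). Without the second TBI pool the 4 h value was -0.32, and without the first TBI+MT pool the 24 h value was 0.0018. A second Dkk3 probe ranged between 1.17 and 40.8, and its lowest level was in that same TBI+MT pool. At 4 h this probe was at 7.19 and 34.5 in TBI+MT, 14.25 and 14.8 in TBI+CB, 40.8 and 37.8 in TBI, and 17.0 and 19.5 in Sham pools. Its log2 difference was 1.11 for TBI against Sham and -1.43 for TBI+CB against TBI (SE 1.075 each, adjusted p = 0.94 and 0.96, limma). The brightest probe gave 0.38 and -0.30. The third Dkk3 probe was never above background.

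Sfrp1, which binds Wnt ligands outside the cell, differed little at 4 h, with levels of 17.1 and 14.6 in TBI+MT, 19.7 and 15.3 in TBI+CB, 13.1 and 18.9 in TBI, and 15.7 and 17.8 in Sham pools and overlap of all groups. At 24 h they were 29.4 and 11.8 in TBI+MT, 15.6 and 11.6 in TBI+CB, 23.5 and 23.9 in TBI, and 15.2 and 26.6 in Sham pools, and both TBI+CB pools lay below both TBI pools (log2 difference -0.82, SE 0.53, adjusted p = 0.63). The dimmer Sfrp1 probe ranked those groups the other way, at 3.04 and 2.75 in TBI+CB and 2.22 and 2.46 in TBI pools. Dkk2 and Sfrp5 were above background on no array, Sfrp4 on 1, Sfrp2 on 7 and Dkk4 on 10.

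Taken by comparison, no Wnt probe passed an adjusted p of 0.05 with limma, and neither did any other probe on the array (0% called in each of the 8 comparisons and in each of the 3 differences between times). TBI was set against Sham to ask what injury did. At 4 h the median log2 difference over the 16 genes was 0.30, beside 0.33 over all 17613 probes tested. Both TBI pools were above both Sham pools for 6 genes (Dkk3, Dvl1, Dvl3, Fzd10, Fzd3 and Wnt2), where 36.5% of all probes did the same, and below them for 3 (Fzd8, Lrp5 and Tcf7l1), beside 7.6% of all probes. Of the 6, Fzd3 had passed the filter only through this TBI group. Of the 3, Fzd8 had passed it only through the Sham and TBI+CB groups at 4 h. No member had an unadjusted p under 0.05, against 589 probes (3.34%) on the whole array. The summed astrocyte markers were 225 and 505 in TBI, against 143 and 255 in Sham pools, with 4 of 6 higher on average, and their part was not tested. The slide numbers in the file headers fall into 3 runs, taken here as batches, and both Sham pools at 4 h shared a run with the first TBI pool only. Within that run, which leaves out the second TBI pool, the median over the 16 genes was 0.10.

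At 24 h the median difference of TBI from Sham was 0.06, beside 0.01 over all probes. One gene, Fzd3, was higher in both TBI pools (13.2% of all probes), though it was above background on no array of either group, and Tcf7l1 was lower (11.4%). Again no member reached an unadjusted p of 0.05, against 325 probes (1.84%). Summed microglial markers were 144 and 126 in TBI, against 33.8 and 65.3 in Sham pools, with all 6 markers higher on average and none called, and their part was not tested. For the difference of TBI from Sham between 24 and 4 h, 414 probes (2.35%) and no member had an unadjusted p under 0.05.

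Each drug was then set against TBI. With MT at 4 h the median was -0.27, beside -0.40 over all probes. Of the interneuron markers that passed, 5 of 5 were lower on average in TBI+MT than in TBI (median -1.36, 0 called), with summed levels of 73.2 and 76.3 in TBI+MT and 92.2 and 129 in TBI pools, and so were 6 of 6 astrocyte markers (median -0.97, 0 called), with sums of 100.0 and 179 in TBI+MT and 225 and 505 in TBI pools. Their part was not tested. No gene was higher in both TBI+MT pools (8.16% of all probes) and Ctnnb1, Dkk3 and Dvl1 were lower (33.6%). The dimmer Wnt5b probe was the 1 of 20 member probes with an unadjusted p under 0.05, against 834 probes (4.73%) on the array. With CB at 4 h the median was -0.05, beside -0.28 over all probes, and 4 of 5 interneuron and 4 of 6 astrocyte markers were lower on average (0 called). Fzd8 and Tcf7l1 were higher in both TBI+CB pools (7.43%) and Dvl1, Dvl3 and Wnt2 lower (34.6%), with no member and 606 probes (3.44%) under an unadjusted p of 0.05. Of these, Fzd8 had passed the filter only through the Sham and TBI+CB groups at 4 h. Quantile normalization, which took the median over all probes to -0.01 with MT and to 0.01 with CB, turned the direction of 5 of the 16 genes with MT, Dvl1 among them, and of Wnt2 and Wnt5b with CB. Since both drugs were compared with the same TBI pools, their values are not independent. Within the second slide run, where only the second TBI pool can serve as the comparison, the medians were -0.54 with MT and -0.31 with CB, and without that pool they were -0.09 and 0.34.

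At 24 h the median with MT was -0.38, beside -0.39 over all probes. No gene was higher in both TBI+MT pools (5.68%) and Dvl1, Wnt2b and Wnt5b were lower (28.6%). Wnt2b was the 1 of 20 member probes with an unadjusted p under 0.05, against 970 probes (5.51%). With CB the median was -0.39, beside -0.04 over all probes. Ctnnb1 and Fzd8 were higher in both TBI+CB pools (16% of all probes) and 6 of the 16 genes, Axin2, Fzd5, Lrp5, Sfrp1, Tcf7l1 and Wnt2b, were lower (27.4%). The median was 0.26 without the second TBI+CB pool. The dimmer Wnt5b probe was the 1 of 20 with an unadjusted p under 0.05, against 1447 probes (8.22%). All drug-treated pools at 24 h were in a slide run of their own, so run and drug cannot be told apart at this time. Between 24 and 4 h, the difference of TBI+MT from TBI had an unadjusted p under 0.05 for no member and 821 probes (4.67%), and that of TBI+CB for the dimmer Wnt5b probe and 1364 probes (7.75%).

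The drugs were also set against each other, within 1 slide run at each time. At 4 h the median difference of TBI+MT from TBI+CB was -0.19, beside -0.20 over all probes. Wnt2 was higher in both TBI+MT pools (11.8%), and Ctnnb1, Dkk3, Fzd10, Fzd3 and Wnt2b were lower (19.2%), with no member and 548 probes (3.11%) under an unadjusted p of 0.05, and quantile normalization turned Dkk3 to the other direction. At 24 h the median was -0.36, beside -0.29. Axin2 and Tcf7l1 were higher in both TBI+MT pools (8.51%) and Dvl1 and Wnt2 lower (10.4%). The dimmer Wnt5b probe was above background on 3 of 4 TBI+CB arrays and on no TBI+MT array, and was at least 2.21-fold lower in TBI+MT (unadjusted p = 0.011, adjusted p = 0.79), 1 of 20 member probes under an unadjusted p of 0.05 against 893 probes (5.07%).

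**Figure D3:**
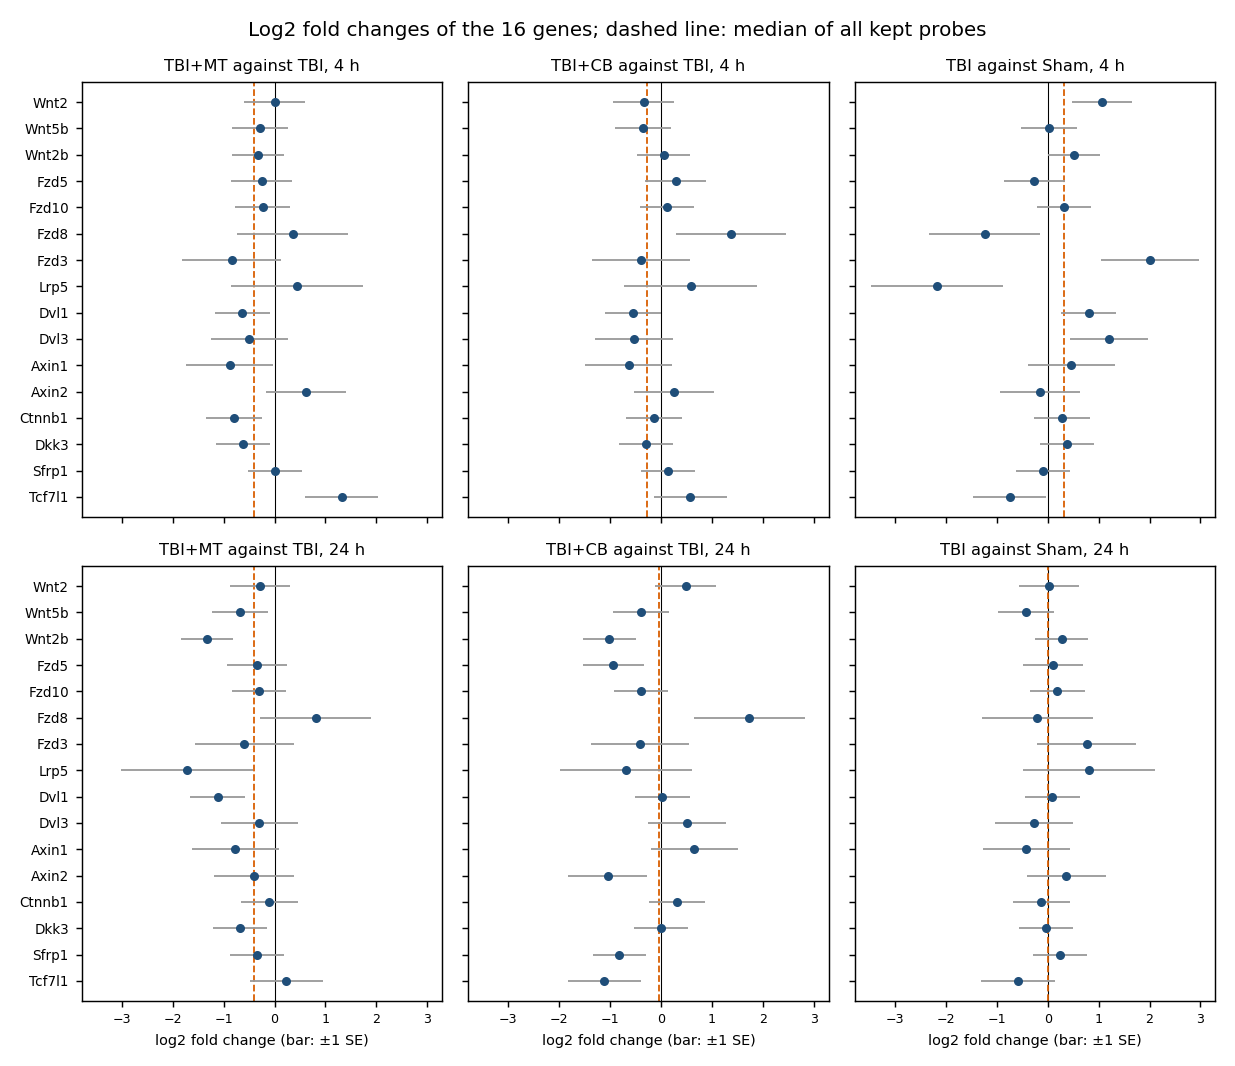
Log2 fold changes of the 16 genes, by role, in each drug group against TBI and in TBI against Sham at 4 h (top row) and 24 h (bottom row). Points are limma estimates, bars are 1 standard error and the dashed line is the median over all probes tested. No gene passed an adjusted p of 0.05, and the points lie around the dashed line, which is at -0.40 with MT against TBI at 4 h and 0.33 for TBI against Sham at 4 h.

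For 8 of the 16 genes, the 4 pools with most and the 4 with fewest probes detected did not overlap. The 4 pools with most probes above background (52.6% to 64.6%) came from 4 different groups. They were the first Sham, first TBI and second TBI+MT pools at 4 h and the first TBI+CB pool at 24 h. The 4 with fewest (27.7% to 40.1%) came from 4 different groups, all at 24 h. Most of this contrast is therefore also one of 4 h against 24 h. Dkk3, Ctnnb1, Dvl1, Dvl3 and Axin1 were higher in all 4 of the first than in all 4 of the second, as were 37.8% of all probes. Axin1 lay between 14.8 and 22.6 in the pools with most probes detected and between 2.09 and 6.84 in those with fewest, and Dvl3 between 15.4 and 39.4 and between 5.01 and 10.85. Fzd5, Axin2 and Fzd10 were lower in all 4 of the first, as were 6.16% of all probes. Fzd5 lay between 3.05 and 5.67 in the pools with most probes detected and between 6.11 and 11.2 in those with fewest. The part of this in the group differences was not tested.

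**Figure D4:**
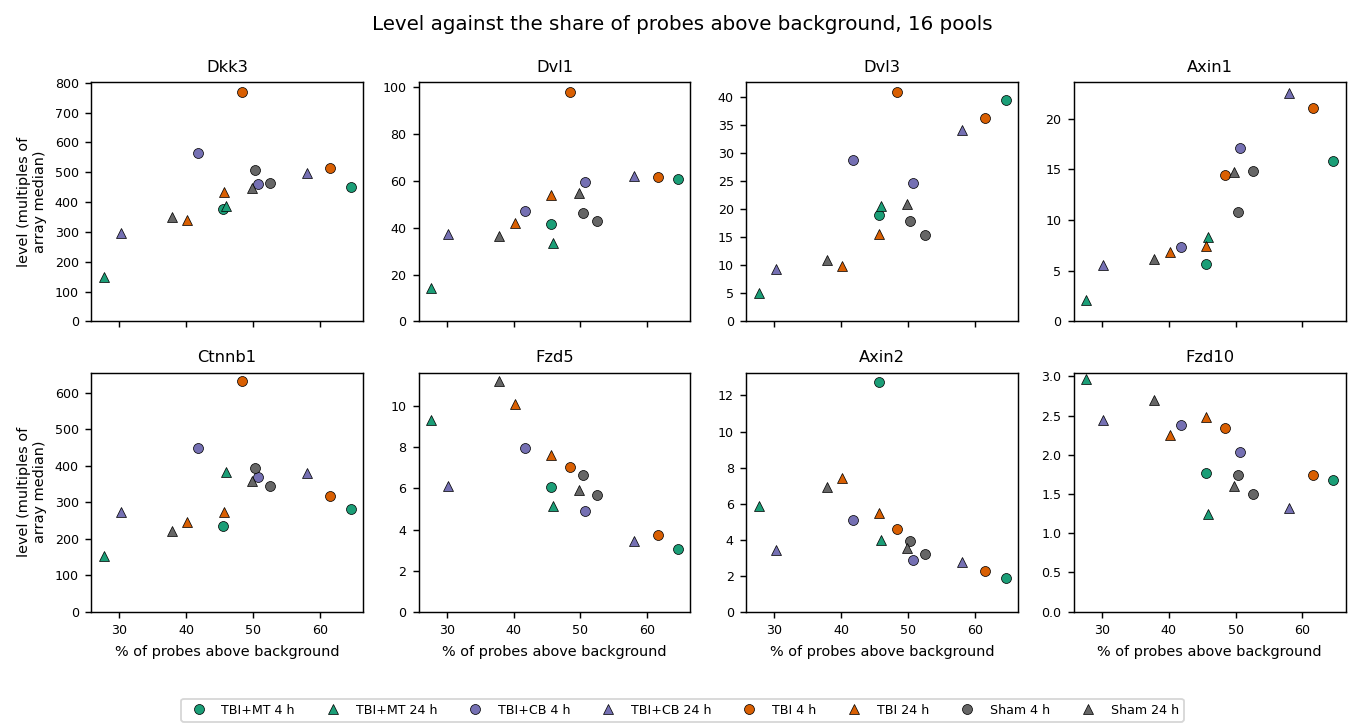
Levels of 8 Wnt pathway genes, in multiples of the array median on axes that start at 0, against the percentage of probes above background in the same pool. Each point is 1 of 16 pools, colored by group, with circles for 4 h and triangles for 24 h. The 4 pools with fewest probes detected were all at 24 h, and those with most were at 4 h but for the first TBI+CB pool at 24 h. Dkk3, Dvl1, Dvl3, Axin1 and Ctnnb1 were higher, and Fzd5, Axin2 and Fzd10 lower, in the 4 pools with 52.6% to 64.6% of probes detected than in the 4 with 27.7% to 40.1%, and Axin2 at 12.7 in the first TBI+MT pool at 4 h stands off from the other points.

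Beyond these genes, 57 other genes of the pathway were listed, from the destruction complex, secretion, membrane modulators, planar polarity, nuclear cofactors and target genes. Of them 45 had a probe and 31 passed the filter, and none was called higher or lower in any comparison. Their median log2 difference is given here with the median over all probes in parentheses. It was 0.13 (0.33) for TBI against Sham at 4 h and 0.03 (0.01) at 24 h. Against TBI it was -0.18 (-0.40) with MT and -0.31 (-0.28) with CB at 4 h. At 24 h it was -0.35 (-0.39) with MT and -0.12 (-0.04) with CB. The genes of this list described next were among the 3 with the smallest p in a comparison. Frzb, which encodes a secreted antagonist that sequesters Wnt ligands, was at 0.434 and 0.839 in TBI+MT, 0.178 and 0.897 in TBI+CB, 2.05 and 2.09 in TBI, and 0.345 and 0.653 in Sham pools at 4 h. It was above background on no Sham array, so TBI was at least 2.87-fold higher (adjusted p = 0.94), and both drug groups were below both TBI pools (log2 difference -1.78 with MT and -2.37 with CB, SE 0.86 each, adjusted p = 0.74 and 0.96). With 1 pool left out the value with CB ran between -3.54 and -1.21. Frzb was above background on 12 of 32 arrays, and its highest level in the series was in this TBI group. It may thus have passed the filter through that group, which would set these differences in part. The differences from Sham and with each drug share the same TBI pools and are not independent.

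Of the 9 nuclear cofactors tested, 5 were higher and 4 lower on average in TBI than in Sham at 24 h (median 0.03). Among those lower were the corepressors Tle1 and Tle2, which bind Tcf factors. Tle1 was at 0.431 and 0.586 in TBI and 2.34 and 1.11 in Sham pools (log2 difference -1.68, SE 0.70, adjusted p = 1.0), and Tle2 at 0.916 and 1.503 in TBI and 3.99 and 2.95 in Sham pools (-1.55, SE 0.67, adjusted p = 1.0). In TBI+CB pools at 24 h Tle1 was at 3.19 and 0.833, above both TBI pools (log2 difference 1.70, SE 0.70, adjusted p = 0.59, and 0.73 without the first TBI+CB pool). Tle4, of the same family, went the other way, at 1.31 and 1.505 in TBI+CB and 2.80 and 3.28 in TBI pools at 24 h. Its log2 difference was -1.11 (SE 0.49, adjusted p = 0.59, limma). Of the 9 cofactors, 5 were higher and 4 lower on average with CB at 24 h (median 0.36). Birc5, a target gene that encodes survivin, was at 0.740 and 0.248 in TBI+CB and 2.33 and 1.23 in TBI pools at 4 h, at least 1.64-fold lower in TBI+CB (adjusted p = 0.96), and at least 1.19-fold without the first TBI pool. Nkd1, another target gene, went the other way, at 5.26 and 3.52 in TBI+CB and 2.82 and 0.321 in TBI pools at 4 h. Its log2 difference was 2.18 (SE 1.03, adjusted p = 0.96, limma), and 0.61 without the second TBI pool. Of the 3 target genes tested in that comparison, 2 were higher and 1 lower on average (median 0.33). Wif1, a secreted ligand-binding inhibitor, was at 11.3 and 25.9 in TBI+MT and 34.3 and 45.4 in TBI pools at 24 h (log2 difference -1.21, SE 0.61, adjusted p = 0.91, and -0.61 without the first TBI+MT pool). Of 12 listed target genes, 8 had a probe and only Birc5, Nkd1 and Notum passed, while Myc was above background on no array and Ccnd1 on 4.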

How the data were processed

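The deposited scanner files give a raw spot intensity for each probe of 32 CodeLink rat arrays, read, per the file headers, with the CodeLink Expression Analysis software, and a signal strength score that is 1 or more where a spot is above background. The RNA had been amplified before labeling, so levels are those of amplified RNA. The value table of the series holds the authors' processed values, a ratio of each intensity to its array's median, and was used only as an alternative. Precision is limited by the 2 pools per group, since duplicate arrays of a pool are technical.

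Each raw intensity was divided by the header's array median, floored at 0.1 and put on the log2 scale. Masked and irregular spots were left out and duplicate arrays averaged. A probe was kept where some group had it above background on each of its 4 arrays. All 8 groups, of 2 pools each, entered 1 fit with limma (version 3.58.1, R version 4.3.3), and p-values were adjusted by the Benjamini-Hochberg method over all probes tested, with a threshold of 0.05. Where a gene had several probes, the one brightest on average represents it. The labels call the pools separate samples without saying which rats each held, so p-values measure the spread between pools. A bound ("at least") sets the bright group's mean against the lowest level above background on the dim group's arrays, or the probe's own level where that is higher. The same fit was also run on simulated data with known changes.

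Gene symbols came from the platform annotation: 16878 probes had 1 symbol, 182 had several and 16789 had none, and 16834 were updated through RefSeq, which changed 0 of the member symbols. In each of the 6 comparisons with TBI or Sham, the 4 Wnt genes with the smallest p were named, with those of each role that had the highest mean. Members and lists were chosen with earlier results of these data known. The alternatives were other scaling, floors, filters, spots, array and probe choices, variance priors and blocks, the study's 2-fold rule on arrays, and leaving out each pool.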

Additional observations from a re-analysis of the deposited data

Results flagged for a closer look

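Tcf7l1 was flagged because its difference between TBI+CB and TBI ran in opposite directions at the 2 times. Both TBI+CB pools were above both TBI pools at 4 h and below both at 24 h, and the difference at 24 h minus that at 4 h was -1.69 on the log2 scale (SE 1.02, adjusted p = 0.57, limma), which did not pass the threshold. At 24 h the gene was above background on only 2 of 4 TBI+CB arrays.

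Sfrp2, a secreted inhibitor whose probe did not pass the filter, was flagged because it was above background on both arrays of the second TBI pool at 4 h (level 1.25) and of the first TBI+CB pool at 24 h (level 1.12), and on 0 Sham arrays, where its levels lay between 0.1 and 0.707. Its highest level, 1.37, was in the first TBI+MT pool at 24 h, where it was above background on 0 arrays. Levels of this size were thus also reached by undetected spots. The TBI pool named here is the one with high Ttr.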

How the results depend on the processing

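No Wnt probe was called in any comparison or difference between times under any setting run (0 calls each), and with 2 pools per group a lack of calls does not show a lack of change. For the 4 genes with the smallest p in each of the 6 comparisons with TBI or Sham, 437 values were obtained under alternatives. Of these, 430 kept their direction and 7 turned. Being picked by p in these same data, they do not stand for all 16 genes. Over all 16, quantile normalization alone kept the direction of 11 with MT against TBI at 4 h. Quantile normalization, which removed most of the shift shared by all probes at 4 h (median with MT against TBI -0.0077 over all probes), moved the median of the Wnt genes to 0.19 with MT against TBI at 4 h and to -0.023 for TBI+MT against TBI+CB at 4 h, and turned Dvl1 with MT at 4 h to 0.014. The slide run as a block gave -0.54 with MT at 4 h; it could not be fitted for the drugs against TBI at 24 h. Arrays within 2-fold left 3 genes with MT against TBI at 24 h (median -0.69) and 1 gene for TBI+MT against TBI+CB at 24 h (0.64). Leaving out both dim pools at 24 h, chosen after seeing the data, gave 0.26 with CB and turned Dkk3 with MT to 0.0018, as did leaving out the first TBI+MT pool. A floor of 0.5 turned Fzd3 at 24 h, TBI against Sham, to -0.12. Leaving out 1 pool at a time, Wnt5b in that comparison ran between -0.86 and 0.019 and Lrp5 between -0.36 and 1.99, and with MT against TBI at 24 h Lrp5 ran between -3.76 and 0.33 and Dkk3 between -1.37 and 0.0018. In the same way the median ran between 0.10 and 0.45 for TBI against Sham at 4 h and between -0.08 and 0.14 at 24 h. With MT against TBI it ran between -0.54 and -0.090 at 4 h and between -0.72 and -0.42 at 24 h. With CB against TBI it ran between -0.31 and 0.34 at 4 h and between -0.48 and 0.26 at 24 h. For TBI+MT against TBI+CB it ran between -0.33 and -0.18 at 4 h and between -0.91 and -0.03 at 24 h. The cause of these moves was not tested. With the replicate number as a block the medians were bound to stay as without it (0.30 for TBI against Sham at 4 h, for example), since each group held 1 pool of each number. That setting bears only on the spread, and 0 probes were called. Correlations of same-numbered pools ran between -0.57 and 0.38, and whether such pools share more than a number was not tested. The crossed pairing at 24 h, chosen after seeing the data, also called 0 probes. On the whole array, where 0 probes were called in each comparison, several settings called a few, none of them a Wnt probe. The slide run block called 49 probes with MT and 1 with CB against TBI at 4 h, as did leaving out the first TBI pool at 4 h, to which it is equal there, and which also called 47 for TBI against Sham at 4 h. Leaving out the first TBI+CB pool called 15 and leaving out both dim pools 7 with CB at 24 h, and keeping all 32 arrays called 12 for TBI against Sham at 24 h. Under every other setting at most 4 were called in a comparison. Background correction by normexp was not run, as the columns used hold no separate background signal.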
